A study of Mus musculus with 12 samples.

Results

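Ras proteins are small membrane-bound GTPases that pass growth signals on while they hold GTP. Ras GTPase-activating proteins (GAPs) speed up GTP hydrolysis and so turn Ras off, and Spred proteins bring the GAP neurofibromin to the membrane. In the Schwann cell lineage, inherited loss of the gene for neurofibromin is known for causing neurofibromas, some of which progress to malignant peripheral nerve sheath tumours (MPNSTs). This account gives the DNA copy ratio of 9 such genes in mouse MPNST cells: the GTPase genes Hras1, Nras, Rras and Rras2, the GAP genes Rasa1, Rasa2, Rasa3 and Rasal1, and Spred1. They were chosen by name, as the genes that the array's probe annotation gives under these symbols, out of 19959 autosomal gene names. They hold 16 probes of 40726 autosomal probes. Hras1, Nras, Rras and Rasal1 have 1 probe each, Rasa2, Rasa3 and Spred1 have 2, and Rras2 and Rasa1 have 3. The gene called Hras1 on the array carries the current symbol Hras.

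Genomic DNA of cultured tumour cells from P0-GGFβ3 mice was hybridised to 12 two-colour Agilent arrays. In these mice the P0 promoter, active in Schwann cells, drives the neuregulin-1 isoform GGFβ3. A strain cross, C57BL/6J x SJL/J, gave 7 of the tumours, called mixed here: A18, A202, A292, A382, A390, A394 and 231 Trig. The C57BL/6J strain gave the other 4, which are B76, B86, B91 and B96. A382 was hybridised at passages 8 and 9 and entered as the mean of both arrays, so n = 11 tumours; where titles state a passage it lay between 5 and 13, while the culture notes set a limit of 5 to 8 passages. The other channel of every array held DNA of wild-type C57BL/6J Schwann cells without a tumour, so the mixed tumours differ from it in strain as well. No label says whether the reference DNA was 1 preparation or a pool, or whether each tumour came from its own mouse. Tumour cultures grew without forskolin and NRG1β after the first outgrowth, whereas the reference Schwann cells were kept in both.

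The measured quantity was the log2 ratio of tumour over reference signal, set to 0 at the median autosomal probe of each array. On this scale 1 copy against 2 in every cell of a diploid culture is -1, and 3 against 2 is 0.585; the ploidy of these cultures was not measured. Array noise, an SD estimated from the differences between adjacent probes, ran from 0.180 to 0.246 over the tumours. In both channels, at least 99.4% of an array's spots were well above background, none was saturated, and no member probe was dim on any array. Slide 1 held A18, 231 Trig, A202 and B86 and was read on a different scanner from slides 2 and 3. Its arrays had between 0.723% and 1.99% of spots set aside by the image software, against 0.0604% to 0.107% on the others. The number of arrays limits the precision, and the tests against 0 leave out the spread of the reference itself. A ratio that all tumours share cannot be told apart from a property of the reference DNA, which is in every ratio.

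Across the 11 tumours, Rras, Rasa3 and Spred1 fell relative to the Schwann cell DNA, none of the 9 genes rose, and the shifts were small; Rasal1 was higher in all 11 tumours but missed the size rule. In 3 of 9 genes the mean ratio passed the test (limma, Benjamini-Hochberg adjusted p under 0.05 over all genes, and a mean of at least 0.2 in size). Over all genes tested the same rule called 33.5%, with 15.5% lower and 18% higher, so a count of 3, taken in either direction, lies at the background share. That share depends on the number of probes, at 37.9% for genes with 1 probe, 31% with 2 and 27.1% with 3. Probe by probe, 4 of the 16 fell (Rras, the first Rasa3 probe and both Spred1 probes), beside 17.2% of all probes lower and 37.4% in either direction. The median of the 9 gene means was -0.14, and that of all genes was -0.0083.

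Rras encodes a Ras relative with roles in integrin signalling and vessel stability. Its ratio had a lowest, median and highest value of -0.48, -0.35 and -0.08 in the mixed tumours, and it was -0.30, -0.73, -0.51 and -0.56 in B86, B91, B96 and B76. All 11 tumours were below 0, and the ranges of the backgrounds overlapped. The mean was -0.39 ± 0.187 (SD, n = 11; limma adjusted p = 1.74e-05). Slide 1 averaged -0.22 against -0.50 on slides 2 and 3, and within slide 1 alone the test was not passed (limma adjusted p = 0.106).

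Spred1 encodes an adaptor that inhibits the Ras to MAP kinase pathway, and its human gene is mutated in Legius syndrome. Its ratio was lowest at -0.52, with a median of -0.19 and a highest value of -0.02, in the mixed tumours, and it was -0.40, -0.25, -0.24 and -0.34 in B86, B91, B96 and B76. Every tumour was below 0. The mean was -0.26 ± 0.135 (SD, n = 11; limma adjusted p = 0.000155). In this gene slide 1 was the lower one, at -0.35 against -0.21 on slides 2 and 3.

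Rasa3 encodes a GAP of the GAP1 family that acts on Ras and on Rap1. The ratio ran from -0.62 through a median of -0.26 to -0.10 in the mixed tumours, and it was -0.27, -0.38, -0.22 and 0.05 in B86, B91, B96 and B76. Only B76 was above 0. The mean was -0.26 ± 0.172 (SD, n = 11; limma adjusted p = 0.000512), and the 4 C57BL/6J tumours taken alone did not pass (limma adjusted p = 0.0948).

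Rasal1, a calcium-sensing GAP gene, was the member with the highest mean, and it stopped just short of the size the rule asks for. Its ratio was 0.15, 0.21 and 0.56 at the lowest, median and highest mixed tumour, and 0.06, 0.13, 0.11 and 0.04 in B86, B91, B96 and B76. All 11 tumours were above 0, and every mixed tumour was above every C57BL/6J one. Rasal1 was the 1 member of 9 whose backgrounds did not overlap, as was so for 2.17% of the 19602 genes measured in all tumours. The mean was 0.198 ± 0.142 (SD, n = 11; limma adjusted p = 0.00184). It passed as higher in 9 of 27 alternative settings, such as 0.202 with GC adjustment, 0.226 with centring on the mode and 0.278 under normexp background correction. Several of the 9 only left out 1 tumour. In the other 18 it did not pass. It was 0.09 under a running median over 5 probes (limma adjusted p = 0.0931) and 0.08 in the C57BL/6J tumours only (limma adjusted p = 0.168). Slide 1 alone gave 0.26 (limma adjusted p = 0.0604). The highest value came from A202, where the chromosome 5 median was 0.24 and the level of the probes around Rasal1 was 0.18, each the highest of the 11 tumours. A202 was also the array with the most spots set aside, and the part of either in the value was not tested.

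The other 5 genes did not pass. Hras1, a classical Ras gene, had a mean of -0.16 ± 0.155 (SD, n = 11; limma adjusted p = 0.0107), with A18 alone above 0, at 0.20. Nras, another classical Ras gene, averaged -0.02 ± 0.142 and ran from -0.22 in A292 to 0.18 in A390. Rras2 (TC21), a close Ras relative that activates PI 3-kinase, averaged 0.02 ± 0.111, with its highest value in A18, at 0.25. Rasa1 encodes p120 RasGAP, and its mean was -0.14 ± 0.134 (SD, n = 11; limma adjusted p = 0.0147), with its lowest value in A202, at -0.48. Rasa2, a GAP1 family gene like Rasa3, averaged -0.09 ± 0.157 and ran from -0.46 in A390 to 0.12 in 231 Trig.

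**Figure D1:**
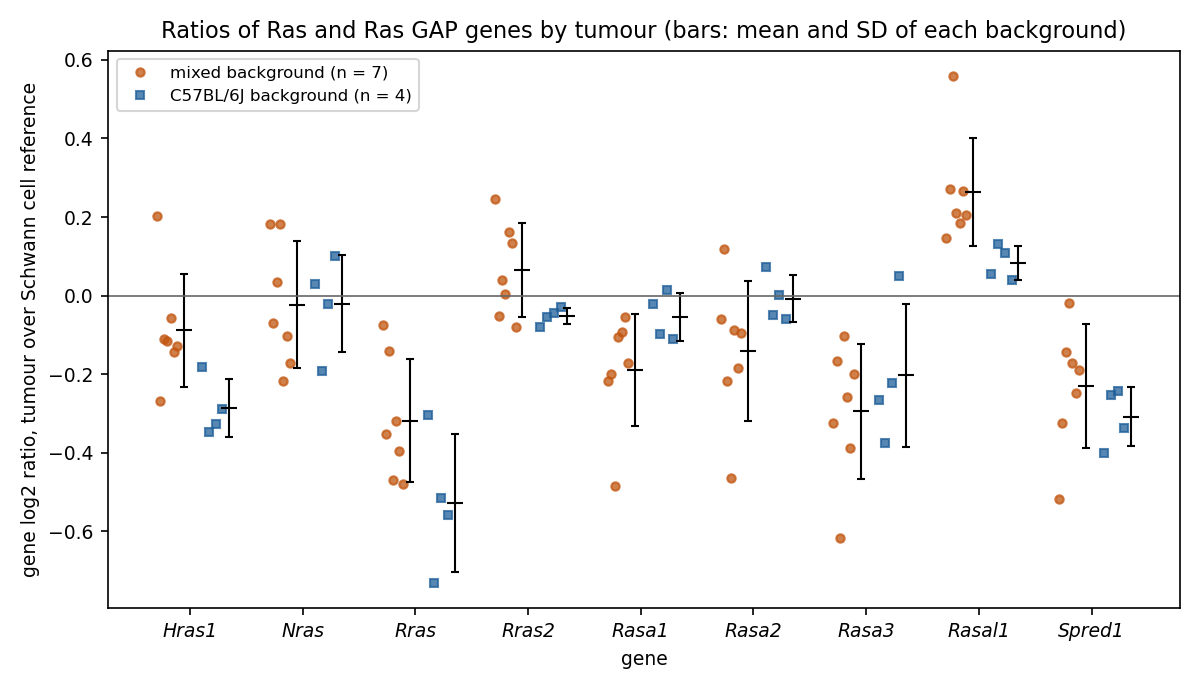
Log2 ratio of tumour over Schwann cell reference DNA (vertical axis) for the 9 genes (horizontal axis), with 1 point per tumour, mixed background as circles on the left and C57BL/6J as squares on the right; black bars show the mean and SD of each background. Rras and Spred1 lie below 0 in all 11 tumours and Rasal1 lies above 0 in all 11.

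To show how each gene stood relative to the DNA around it, each probe was set against the median of its 20 nearest probes, 10 on each side. That median is called the neighbour level here, and the probe minus the median is called its offset. A change of DNA shorter than this window gives an offset just as a probe that reads high or low does, and these cannot be told apart here. The 20 neighbours spanned 301 to 1136 kb around the Rras, Rras2, Hras1, Nras, Rasa2, Rasa3 and Rasal1 probes, 2251 and 2252 kb around the Spred1 probes, and 4677 to 4820 kb around the Rasa1 probes, where the array is sparse.

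None of the 16 member probes had a mean neighbour level that passed the test, against 12.4% of all probes by the same limma rule. Of all probes, 10.1% passed as higher and 2.29% as lower. These shares include chromosome 11, which holds no member, and shares without that chromosome were not computed. In single tumours, neighbour levels of at least 0.2 made up 19.4% of values over all probes and 13.1% outside chromosome 11. Unadjusted, 4 of the 16 had a p under 0.05, against 48.5% of all. Both Rasa2 probes had an adjusted p under 0.05, with means of -0.14 and -0.13, short of the size rule. Averaged over each gene's probes, the neighbour level was -0.06 ± 0.11 at Rras, -0.02 ± 0.0941 at Spred1 and -0.09 ± 0.168 at Rasa3 (SD, n = 11). It was -0.06 ± 0.111 at Rasal1. At the 3 genes that fell the median of the 20 neighbours was thus nearer to 0 than the gene, although the probes next to Spred1 were not (given with its probes), and at Rasal1 that median lay on the other side of 0.

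At Rras, Spred1 and Rasa3 the offset made up most of the mean shift. Offsets passed the test in 4 of 16 probes, 3 lower and 1 higher, whereas 28.4% of all probes passed, 14.9% lower and 13.5% higher. Offsets lay below 0 in all 11 tumours at 6 member probes and above 0 in all 11 at 2; over all probes the shares were 16.8% and 17.1%. The member probes' median size of the mean offset was 0.128, against 0.124 for all probes. The SD of the offset over tumours had a median of 0.0843 in the members and 0.108 in all probes.

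The sequences below are the first 30 bases of the probes behind these shifts, 5′ to 3′ as the array annotation lists them, in lower case with no part marked. The files give mm9 positions but neither strand nor exon annotation for them. The first is the only probe of Rras, 60 bases long at chr7:52276965-52277024, between probes of Irf3 and Prr12.

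Rras: actgctgtatataagccccatctttcagaa

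The Rras offset was -0.17 in A202, the mildest tumour, and -0.52 in B91, the strongest. Its mean was -0.33 ± 0.0947 (SD, n = 11; limma adjusted p = 3.55e-07), and 2 of its 20 neighbours had a larger mean offset in size. The nearest probes, in Irf3 at 19.9 kb and in Prr12 at 24 kb, had mean ratios of -0.20 and 0.06. Taking a running median over 5 probes before the gene means left Rras at -0.02 (limma adjusted p = 0.741). Of the other genes that fell, Spred1 still passed with this setting, at -0.28 (limma adjusted p = 0.000115), and Rasa3 did not, at -0.18, under the size rule (limma adjusted p = 0.00706).

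The sole Rasal1 probe, 60 bases long, lies at chr5:121101867-121101926 between probes of Ddx54 and Dtx1.

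Rasal1: ttgtaggaaggtagaaaccaacaaaccaca

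Its offset was lowest in B86, at 0.12, and highest in A202, at 0.38. The mean was 0.26 ± 0.084 (SD, n = 11; limma adjusted p = 1.53e-06). Of the probe's 20 neighbours, 4 had a larger mean offset in size. The ratios of the adjacent Ddx54 and Dtx1 probes averaged -0.03 and 0.09. With 10 neighbours in place of 20 the offset was 0.17, under the size rule.

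Spred1 has 2 probes 8.51 kb apart, of 59 and 54 bases, at chr2:116989243-116989301 and chr2:116997756-116997809.

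Spred1 probe 1: gaatgtatgcttaagaaagacctcatctat
Spred1 probe 2: cataagaccgttaccctttgaagatctgaa

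Both were below their neighbours in all 11 tumours. The first had an offset of -0.28 ± 0.12, which passed (SD, n = 11; limma adjusted p = 1.01e-05), and the second had -0.20 ± 0.0838, just short of the size rule (limma adjusted p = 2.25e-05). Slide 1 was lower at both: -0.40 against -0.21 on slides 2 and 3 at the first, and -0.25 against -0.16 at the second. Of 20 neighbours, 8 had a larger mean offset in size than the first probe, and 11 had a larger one than the second. The second probe was above the first in 8 of 11 tumours. The next probe beyond them, 8.93 kb after the second and annotated to the transcript AK136760, had a mean ratio of -0.32. The probe before the first, 61.5 kb away and without a gene name, had a mean ratio of -1.13, so the probes on both sides of Spred1 were low as well.

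The Rasa3 probes lie 36 kb apart at chr8:13567194-13567251 and chr8:13603182-13603241 and have 58 and 60 bases.

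Rasa3 probe 1: tgggaatccaaaccactccacagaaagaat
Rasa3 probe 2: catctactagcccagcagtatcaataactc

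The first was below its neighbours in all 11 tumours, with a mean offset of -0.25 ± 0.0997, which passed (SD, n = 11; limma adjusted p = 7.7e-06). With 10 neighbours it was -0.17, and with slide 1 alone it was -0.17, both under the size rule. The second averaged -0.10 ± 0.0844 and did not pass. Of 20 neighbours, 2 had a larger mean offset in size than the first probe, and 12 had a larger one than the second. In A292, A382, A390 and B91 the first probe read -0.43, -0.58, -0.22 and -0.56, whereas the second read -0.09, -0.20, 0.01 and -0.19. In the slide 1 tumours A18, 231 Trig, A202 and B86 the first read -0.33, -0.16, -0.64 and -0.24, close to the second at -0.32, -0.17, -0.60 and -0.29. The first probe thus lay clearly below the second on slides 2 and 3, except in B76, and close to it on slide 1; which of scanner, slide and tumour it followed was not tested.

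Hras1 read below its neighbours in all 11 tumours, with an offset of -0.19 ± 0.0717, under the size rule. Rasa1 probe 3 did so with the smallest spread among the members, at -0.13 ± 0.0401 (SD, n = 11); 0.631% of all probes varied less over the tumours. Nras averaged -0.09 ± 0.0842. Rasa2 probe 1 lay at its neighbours, with a mean offset of 0.004 ± 0.123, and Rasa2 probe 2 above them, at 0.08 ± 0.0778. Rasa1 probe 2 ran from -0.28 in A18 to 0.31 in B76 and averaged 0.05 ± 0.156, and Rasa1 probe 1 averaged -0.10 ± 0.108.

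**Figure D2:**
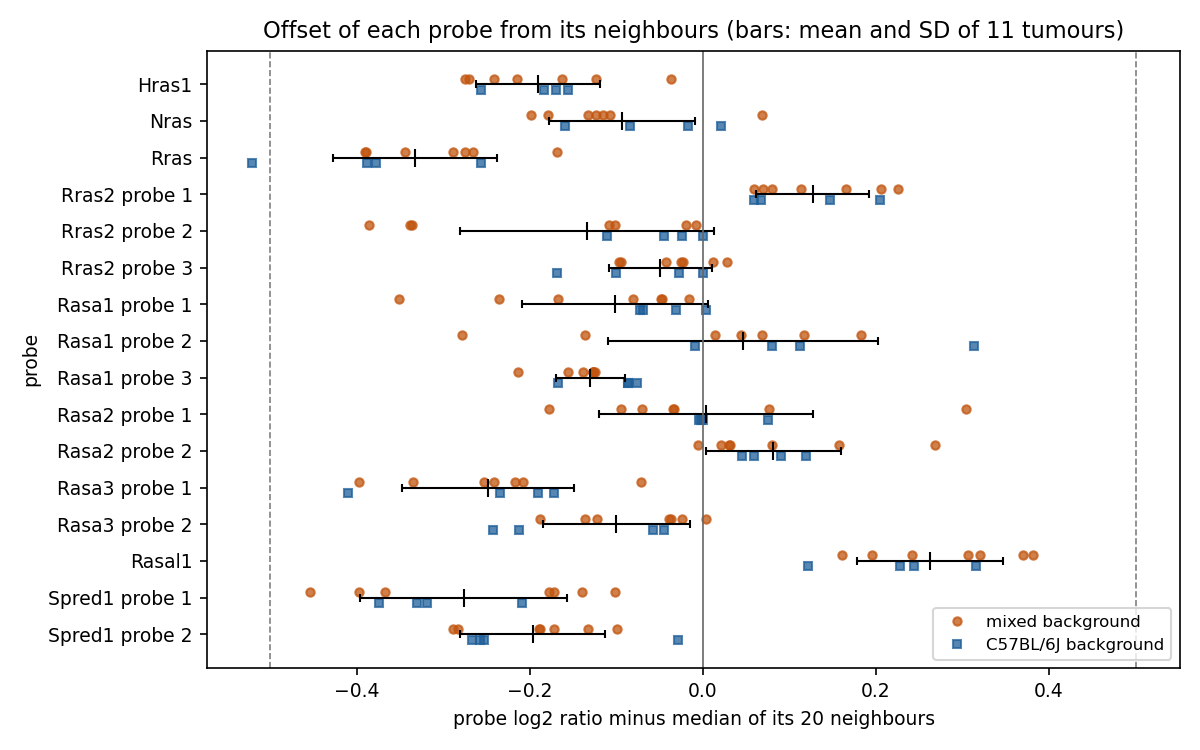
Offset of each of the 16 probes (rows) from the median of its 20 neighbours, on the log2 scale (horizontal axis), with circles for mixed and squares for C57BL/6J tumours and black bars for the mean and SD of 11 tumours; dashed lines mark the size of 0.5 used to call a probe in a single tumour. Rras, Spred1 and Rasa3 probe 1 sit left of 0 and Rasal1 right of 0 in every tumour, and Rras in B91, at -0.52, is the only point past a dashed line.

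Rras2 showed how far probes of 1 gene can part. Its 3 probes of 60 bases lie at chr7:121191448-121191507, chr7:121198676-121198735 and chr7:121247034-121247093. They are shown because probes 1 and 3 read high in the 3 tumours with a raised region around the gene and probe 2 did not.

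Rras2 probe 1: tagacatgtgttttaaaggaatcagataac
Rras2 probe 2: attgtcccacagcaacagttatatgatgtt
Rras2 probe 3: ttatatggcttttccttttacacttttatt

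In A18, A292 and A382 the neighbour level around Rras2 was raised, at 0.30, 0.28 and 0.21. Probe 1 read 0.46, 0.34 and 0.28 there, and probe 3 read 0.31, 0.25 and 0.23. Probe 2 read -0.03, -0.10 and -0.11 in the same tumours. Its offsets there were -1.49, -2.06 and -1.71 times the array noise, from 1 spot on each array, so no single one of them stands far outside that noise. The noise is estimated between adjacent probes, so it also holds fixed differences between probes. Across tumours, the probe 2 offset ran from -0.39 to -0.34 in these 3 and from -0.11 to 0.0008 in the other 8. In the other 8 tumours probe 2 ran from -0.19 to 0.01, so its values in the 3 tumours with a raised region lay inside its range elsewhere, while those of probes 1 and 3 lay above theirs. The gene mean of Rras2, which averages all 3 probes, therefore stands below the regional level in A18, A292 and A382. Probe 2 lies 7.23 kb from probe 1 and was below it in 11 of 11 tumours, with a mean difference of -0.25 ± 0.142 (SD, n = 11). Probe 3 was also below probe 1 in 11 of 11, with a mean difference of -0.17 ± 0.0854. Probe 1 itself lay above its neighbours in all 11 tumours, with a mean offset of 0.13. Between probes 2 and 3 the order was mixed, with probe 3 higher in 7 tumours and lower in 4.

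**Figure D3:**
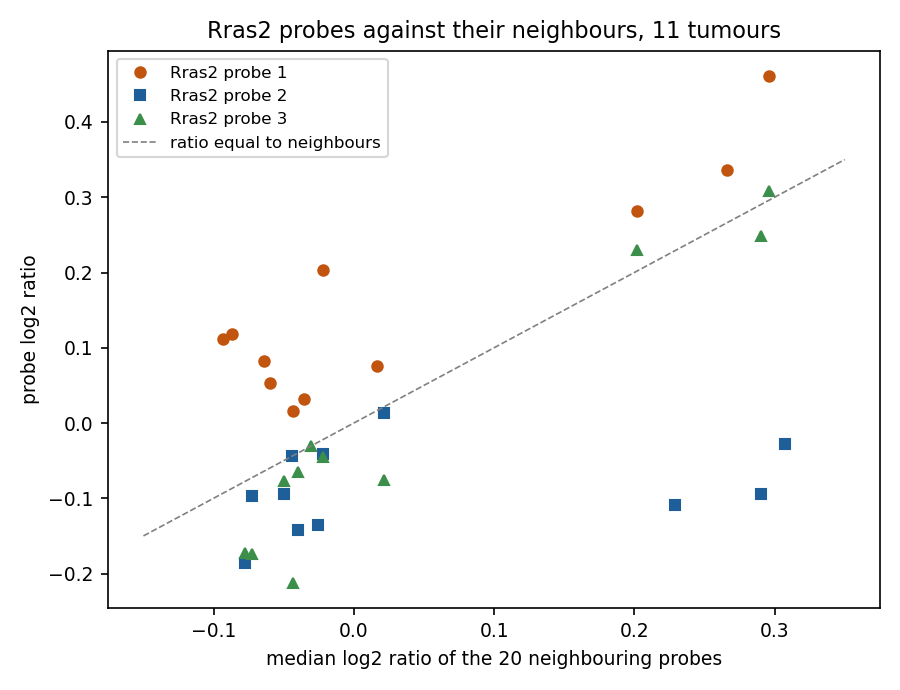
Log2 ratio of the 3 Rras2 probes (vertical axis) against the median log2 ratio of their 20 neighbours (horizontal axis), 1 point per probe and tumour, with a dashed line where both are equal. Probes 1 and 3 read at least 0.23 in the 3 tumours whose neighbour level was raised, and probe 2 stays between -0.11 and -0.03 in them.

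Tumour by tumour, no member probe was called apart from its region. A focal call asked for an offset of at least 0.5 in size and at least 3 times the array noise, and 0 of 176 values of a probe in a tumour met it, against 2.25% over all probes and tumours. The offset of -0.52 at Rras in B91 was large enough but stayed under 3 times that array's noise of 0.203.

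The regions around the genes did change in single tumours. A region was called where the neighbour level was at least 0.2 in size. Of 99 values of a gene in a tumour, 7 were gains, or 7.07%, and 5 were losses, or 5.05%. The number of losses depended on the setting, with 11 under normexp background correction and 14 with 10 neighbours. Over all probes and tumours the shares were 19.4% and 10.3%, and outside chromosome 11, which holds no member, they were 13.1% and 11.1%. Values of genes on 1 chromosome in 1 tumour are not independent, so these shares are given as a description.

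Of the 7 gains, 6 were at GTPase genes on chromosomes 7 and 3, and 3 of these were in A18. Hras1, Rras and Rras2 share chromosome 7, and a difference between GTPase and GAP genes was not tested. A18 had neighbour levels of 0.37 at Hras1, 0.30 at Rras2 and 0.31 at Nras, and the medians of its chromosomes 7 and 3 were 0.28 and 0.23. Rras, also on chromosome 7, had a neighbour level of 0.19 in A18, just under the call. A292 and A382 were called at Rras2, with chromosome 7 medians of 0.20 and 0.12. B76 had 0.26 at Nras and 0.27 at Rasa3, and its chromosomes 3 and 8 had medians of 0.35 and 0.27. Every gain call thus lay on a chromosome whose own median was above 0 in that tumour.

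Of the 5 losses, 4 were at GAP genes, and 3 of these were in 1 tumour, A202. A202 had neighbour levels of -0.36 at Rasa1, -0.39 at Rasa2 and -0.44 at Rasa3, on chromosomes 13, 9 and 8 with medians of -0.36, -0.34 and -0.42. A390 had -0.39 at Rasa2, where the chromosome 9 median was -0.40. B91 had -0.21 at Rras, on a chromosome 7 with a median of -0.11. In A202 the levels around Rasa1, Rasa2 and Rasa3 were therefore low on chromosomes whose medians were low too. The fourth GAP gene, Rasal1, had a neighbour level of 0.18 there. A202 had losses called at 29.4% of all autosomal probes, and losses in the other tumours covered 2.59% to 16.3%. Spred1 had no regional call in any tumour, but its neighbours span a long and uneven stretch. Inside that stretch lies the exchange factor gene Rasgrp1, with 2 probes at chr2:117120587-117160038. The neighbour level at Rasgrp1 averaged -0.18 ± 0.085 (SD, n = 11) and was called as a loss in 6 tumours. The mean ratio of Rasgrp1 itself was 0.19. The tumours 231 Trig, A394, B86 and B96 had no call at any of the 9 genes. In them gains were called at 15.2%, 13.1%, 20.2% and 17% of all autosomal probes, so regional changes lay elsewhere in these tumours. A18 and B76, with 5 of the 7 member gains, had gains at 26.9% and 29.4% of all probes.

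**Figure D4:**
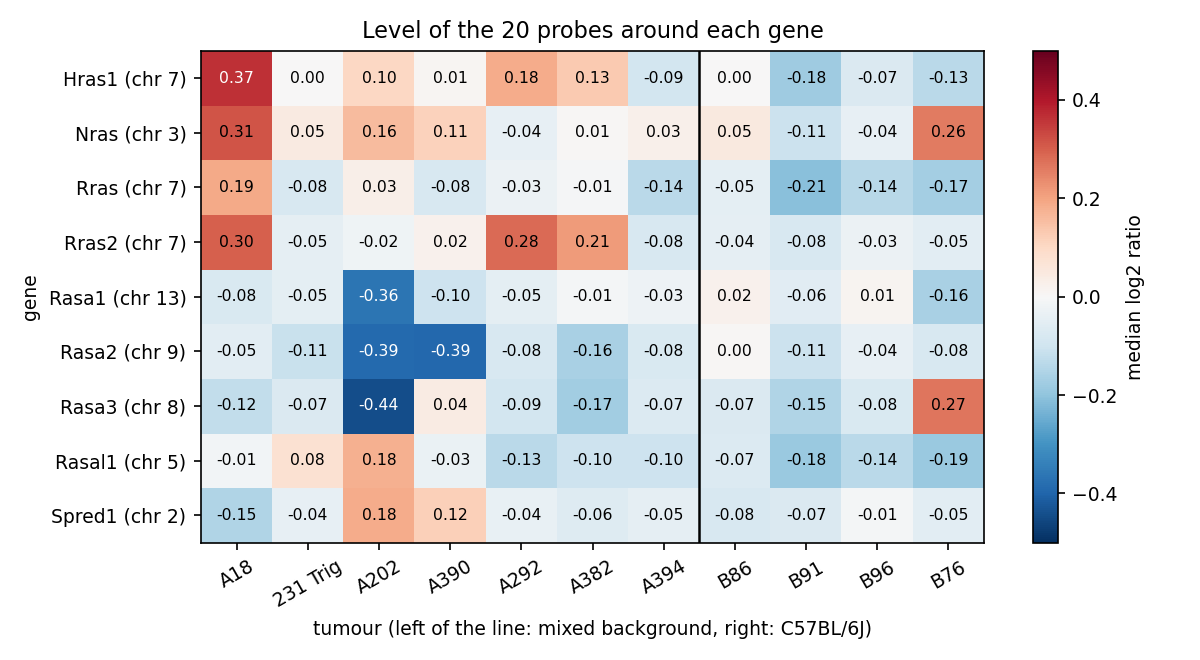
Median log2 ratio of the 20 probes around each gene (rows, with its chromosome) in each tumour (columns, mixed background left of the line and C57BL/6J right), with the value printed in each cell and blue to red for low to high. The strongest cells are A202 and A390 at Rasa2, A202 at Rasa1 and Rasa3, and A18 at Hras1, Nras and Rras2.

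The mixed and C57BL/6J tumours were compared because the reference is C57BL/6J and a probe can read differently on SJL/J DNA. None of the 9 genes and none of the 16 probe offsets passed this test (limma, adjusted p under 0.05 over all features); over all features 0.015% of genes and 0.113% of offsets did. Unadjusted, no member offset had a p under 0.05, against 7.18% of all offsets, and 1 member gene did, against 10.3% of all genes. That gene was Hras1, with a mean of -0.09 ± 0.144 in the mixed tumours and -0.29 ± 0.0738 in C57BL/6J tumours (SD, n = 7 and n = 4; limma adjusted p = 0.485). Rras averaged -0.32 in mixed and -0.53 in C57BL/6J tumours, and Rasal1 averaged 0.26 and 0.08 (limma adjusted p = 0.487 for each). The offsets of these probes were closer, at -0.19 in both backgrounds for Hras1, at -0.30 in mixed and -0.39 in C57BL/6J tumours for Rras, and at 0.28 and 0.23 for Rasal1.

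The arrays of A382 at passages 9 and 8, on different slides, gave a measure of repeatability for 1 tumour. Passage 9 minus passage 8 was -0.12 at Rras, with -0.46 at passage 9 and -0.33 at passage 8, and between -0.07 and 0.06 at the other 8 genes. These differences have no test.

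For each gene the autosomal gene over 10 Mb away or on another chromosome with the most similar ratios over the 11 tumours was found. Pearson's r was 0.920 to 0.985 for these pairs, over 11 tumours that share arrays and reference, and each is the highest among all genes compared. In 8 of 9 cases the partner lay on the gene's own chromosome: BC034069 for Hras1, AK143215 for Rras and Abraxas2 for Rras2 on chromosome 7, Sucnr1 for Nras on chromosome 3, Dlat for Rasa2 on chromosome 9, Ces2g for Rasa3 on chromosome 8, Zkscan1 for Rasal1 on chromosome 5 and Psmb7 for Spred1 on chromosome 2. Rasa1 on chromosome 13 was the exception, with Slc46a2 on chromosome 4. How often this holds over all autosomal genes was not computed. The count of 8 of 9 is therefore not read as a trait of these genes. The mean ratio of the partner stayed close to 0 where the member's did not: it was -0.04 for AK143215, beside -0.39 for Rras, and -0.09 for Psmb7, beside -0.26 for Spred1. Dlat, at -0.07, was close to Rasa2, at -0.09.

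Other genes of the Ras pathway were taken from a list of 45, of which 41 had autosomal probes under their names. By the gene rule 6 rose and 9 fell, and 26 did not pass. Over all genes the same rule called 33.5%, with 18% higher and 15.5% lower. The counts of this list and of its classes are therefore given as a description only. The median of the 41 means was -0.0435. Among the other Ras family GTPases, 2 of 14 rose and 3 fell. Among the other GAP and Spred genes 3 of 9 rose and 2 fell, among the exchange factors 1 of 9 rose and 1 fell, and among genes of Ras processing, scaffolds and Sprouty proteins 3 of 9 fell and none rose. The largest means belonged to chromosome 11: Nf1, which encodes neurofibromin, at 0.64 ± 0.197, and Spred2 at 0.63 ± 0.186 (SD, n = 11). Their neighbour levels, 0.64 and 0.70 on average, were called as gains in all 11 tumours, unlike those of any of the 9 genes. A level raised in all tumours cannot be told apart from a property of the reference DNA. Without the 2 genes on chromosome 11, 4 of 39 rose and 9 fell. Next in size were Diras2, a Ras relative, at -0.43 ± 0.232, Spry2, a Sprouty inhibitor of receptor signalling, at -0.38 ± 0.167, and Icmt, the methyltransferase that acts on the processed tail of Ras, at -0.38 ± 0.161. Rasal3, a GAP of blood cells, averaged 0.33 ± 0.174, the Rap family GTPase gene Rap2a -0.23 ± 0.151 and the exchange factor Rasgrp3 0.23 ± 0.193. Diras2, Spry2, Icmt and Rasal3 have 1 probe each, and their neighbour levels averaged -0.13, -0.10, -0.18 and 0.07, each nearer to 0 than the gene.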

How the data were processed

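Each array's deposited scanner file gives a log10 ratio of tumour (Cy5) over reference (Cy3) for each spot, which per the file headers came from Feature Extraction with the mm9 build; per the submitters' processing notes this was Agilent Feature Extraction 9.5. The authors' deposited intensity columns give both channels' processed signals. The log10 ratios were the same as the series' value table (largest difference 0). Here they were turned to log2; spots that the software marked as outliers were set missing, spots of 1 probe averaged, and each array centred on its autosomal median, from 43020 spots of 42404 probes. Gene ratios are means over a gene's probes. limma 3.58.1 in R 4.3.3 was fitted to all autosomal genes or probes, with Benjamini-Hochberg adjustment. In simulated data with 200 shifted genes, the gene rule recovered 76% of shifts of 0.3 and 97% of shifts of 0.6. With 200 shifted probes, the offset rule recovered 90% and 100%. False calls numbered 11 and 3. Values were drawn independently there, unlike neighbours on a chromosome, so the simulation cannot show how the rules behave on the real ratios. Accessions were matched to RefSeq symbols, which changed the symbol of 4501 probes. Named are all 9 genes, up to 8 pathway genes that passed, largest first, and the most similar distant gene of each. Rasgrp1, which did not pass, is named as well for its place near Spred1. The members, lists and tests were chosen with earlier results of these data known. Slide 1 alone was added after seeing the data. Chromosomes X and Y were left out. No strand, exon or protein annotation of this build was used here. Where no source says that samples are separate animals, p-values measure only the spread between these cultures.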

Additional observations from a re-analysis of the deposited data

Results flagged for a closer look

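Within each background, each gene's ratios and neighbour levels and each probe's offsets were searched for a highest or lowest tumour far from the rest, by Dixon's criterion. It marked 8 of 68 groups, which share tumours and values. Chance alone marks about 1 in 20, but over all genes or probes on the array the same criterion marked 9.78% of gene ratios, 13% of neighbour levels and 8.96% of offsets in the mixed tumours, and 6.75%, 9.85% and 7.25% in the C57BL/6J tumours, so the count is not read as an excess. A202 stood apart among the mixed tumours at Rasa1, with a ratio of -0.48 while the others ran from -0.22 to -0.05, and with a neighbour level of -0.36 while the others ran from -0.10 to -0.01. It also stood apart at Rasal1, at 0.56 while the others ran from 0.15 to 0.27. A390 had an Nras offset of 0.0681, and the other mixed tumours were between -0.20 and -0.11. At Rasa1 probe 3 the offset was -0.21 in A394, beside -0.16 to -0.12 in the other mixed tumours, and -0.17 in B91, beside -0.09 to -0.08 in the other C57BL/6J tumours. At Rasa2 probe 1 the offset of B86 was 0.0759, with the other C57BL/6J tumours between -0.004 and 0.0006. Spred1 probe 2 in B91 had an offset of -0.0282, and the other C57BL/6J tumours were between -0.27 and -0.25. No cause of these values was tested.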

How the results depend on the processing

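Values of the member genes, their strain differences and the probe offsets against 0 were recomputed 898 times in all under the alternatives: 844 kept direction and side of the rule, 7 were no longer past it, 24 became so and 23 turned sign. No paired analysis was possible because the labels number no samples across the backgrounds. The count of 3 member genes was 5 under normexp background correction and 1, Spred1, under a running median of 5 probes (4267 of all genes, against 6684), and ran from 3 to 4 when tumours were left out 1 at a time. The 4 member probes past the ratio rule were 8 under normexp, 8 in the mixed tumours only, and 4 to 7 with tumours left out, the 7 without B96. The 4 offsets past the rule were 8 under normexp, 2 with 10 neighbours, and 4 to 5 with tumours left out. Regional losses numbered 11 under normexp and 14 with 10 neighbours, against 5, and focal calls numbered 1 under normexp, against 0. Over all genes the strain test passed 3 genes, but 5 with dim probes left out, 15 under normexp, 0 under the running median, 0 without slide 1, and 2 to 10 with tumours left out. The 46 strain offsets over all probes were 126 under normexp, 116 without slide 1, 83 without A382, and 4 to 79 without 1 of the other tumours. No member passed a strain test under any of these. The cause of these changes was not tested. The values that turned sign were none of those that passed. Hras1 became 0.00113 under the running median. Nras became 0.00573 with centring on the mode and 0.0444 in slide 1 only. Rras2 was -0.0519 in C57BL/6J tumours only. The Rasa3 probe 2 offset was 0.0105 with 10 neighbours, and that of Rasa1 probe 2 was -0.0769 in slide 1 only. The Rasa2 probe 1 offset, 0.004, became -0.0794 with 40 neighbours, -0.093 under normexp, -0.0459 without slide 1, -0.00421 in mixed tumours only, and ran from -0.0264 to 0.0219 with tumours left out. The Nras strain difference, -0.003, became 2.2e-05 with A382 passage 8 only, 0.00122 with GC adjustment, 0.0306 under normexp, 0.0323 under the running median and 0.0103 without A382, and ran from -0.0598 to 0.0372 without 1 of the other tumours.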
